A study of Mus musculus with 10 samples.

Results

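The Celsr genes and 3 partners of planar cell polarity, Vangl2, Fzd3 and Scrib, were followed through the development of the mouse neocortex. The 6 genes were picked by name with their values in these libraries already known, so their levels and differences are given as a description, without a test. They are 6 of the 6147 genes in the deposited table, and 6 of 6 passed the filter at a mean of 1 TPM (transcripts scaled to a fixed total per library and divided by gene length). Frozen neocortex came from an outbred strain, CD1 wild type, on embryonic days E12.5, E14, E15.5 and E17 and on the day of birth (P0). Each of the 5 stages had 2 libraries, 10 in all, which the submitters call biological duplicates; no group carried an allele or a treatment. The labels do not say whether a library pooled animals or litters.

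Planar cell polarity aligns cells within the plane of a tissue. Its core proteins sit at cell junctions: the Celsr atypical cadherins bind each other across neighbouring cells, Frizzled receptors gather with Dishevelled on one face, and Vangl gathers with Prickle on the opposite face. Scrib is a scaffold of the basolateral membrane that binds Vangl2 and also works in apicobasal polarity. In the nervous system the pathway is known for closing the neural tube, for guiding axon tracts, where Celsr3 and Fzd3 act together, and for the migration of neurons. In the developing brain Celsr1 is known mainly from progenitor zones, Celsr3 mainly from neurons after their last division, and Celsr2 from both.

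Of the 6 genes, 3 were found in the RefSeq promoter table for GRCm38.p6, and for 2 of these, Celsr2 and Celsr3, the 250 bases before the RefSeq start overlapped no exon of the 6 genes in GENCODE M21. They are shown because these paralogs differed over the stages, Celsr2 being lower at birth than at E12.5 and Celsr3 not, so that the stretches before their starts can be set side by side. Capitals mark matches on either strand to any of 5 motifs, which are spelled out after the sequences and were chosen after the sequences were seen.
Celsr2, chr3:108415580-108415829, minus strand: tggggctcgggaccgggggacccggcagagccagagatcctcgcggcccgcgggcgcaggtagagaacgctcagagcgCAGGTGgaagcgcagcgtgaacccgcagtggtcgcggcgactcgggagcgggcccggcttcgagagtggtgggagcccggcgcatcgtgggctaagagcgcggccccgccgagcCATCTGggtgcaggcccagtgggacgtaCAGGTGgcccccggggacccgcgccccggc
Celsr3, chr9:108825795-108826044, plus strand: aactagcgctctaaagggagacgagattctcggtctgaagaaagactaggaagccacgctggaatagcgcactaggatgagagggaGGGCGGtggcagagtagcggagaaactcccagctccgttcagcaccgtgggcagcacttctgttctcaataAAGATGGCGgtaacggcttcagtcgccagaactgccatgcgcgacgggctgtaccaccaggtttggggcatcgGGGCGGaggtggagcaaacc
The Celsr2 window held 3 matches to CAGNTG, which occurs in 44.8% of 32851 promoter windows of this length. Celsr3 had 2 matches to GGGCGG, found in 32.7% of windows, and 1 to AAGATGGCG, found in 0.606%. Neither window held CCAAT (33.9% of windows) or TGGGAA (21.6%), and matches did not overlap. Celsr2 had 32 CpG dinucleotides and a GC content of 75.2%, and 95.4% of windows had fewer CpGs. Celsr3 had 17 CpGs and a GC content of 58.0%, with fewer CpGs in 76.5% of windows, against a median of 6 CpGs. A match is a run of letters and was not tested as a binding site.

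All 6 genes are protein-coding, and positions are from GENCODE M21 on GRCm38. Celsr1 lies at chr15:85898929-86033777 on the minus strand, Celsr2 at chr3:108390851-108415552 on the minus strand and Celsr3 at chr9:108826320-108852969 on the plus strand. Vangl2 lies at chr1:172000960-172028444, Fzd3 at chr14:65192449-65262463 and Scrib at chr15:76047158-76069784, each on the minus strand. The 3 Celsr genes are built alike, with 35, 34 and 36 exons in their longest transcripts of 10879, 10598 and 11571 bases for Celsr1, Celsr2 and Celsr3. Vangl2 (9 exons, 6528 bases), Fzd3 (7 exons, 12734 bases) and Scrib (38 exons, 5599 bases) differ from them in layout. The coding sequences of the Celsr genes, of 9105, 8760 and 9930 bases, were 66.2% identical between Celsr1 and Celsr2, 62.1% between Celsr1 and Celsr3 and 63.2% between Celsr2 and Celsr3 over aligned bases. Celsr1 and Celsr3 shared 2 words of 31 bases, which can overlap and so lie in 1 run, and the other pairs shared 0. No pair shared a run of 50 bases (0 in each), which limits the reads that could fall on 2 of the paralogs. Small RNA genes lie within Celsr3 (Gm23156), Scrib (Mir6952) and Fzd3 (Gm27263) on the same strand, and the processed pseudogene Gm9086 lies within Fzd3 on the opposite strand. The library kit keeps strand, but the sources used here do not say whether counting used it.

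Celsr1, the Celsr cadherin best known from epithelial and progenitor cells, had the largest fold difference of the 6 between E12.5 and P0 in TPM; on the log2 scale with a pseudocount of 10 TPM, Vangl2 (-2.27) passed it (-2.22). It stood at 41.8 and 48.6 TPM in the E12.5 libraries, 35.0 and 36.4 at E14, 14.5 and 13.3 at E15.5, 18.3 and 8.31 at E17 and 1.84 and 1.78 at P0. Both libraries of P0 lay below every earlier one. Relative to the E12.5 mean, the stage mean was 78.9% for E14, 30.8% for E15.5, 29.5% for E17 and 4.0% for P0, so that the P0 level was 25-fold lower than the E12.5 level. On log2(TPM + 1), where differences of genes with low values come out too small, P0 minus E12.5 was -4.04 (SE 0.25). Of this, -1.30 (SE 0.25) lay between E14 and E15.5 and -2.26 between E17 and P0.

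Celsr2, expressed by progenitors and neurons alike in published maps of the brain, kept more of its level. It measured 34.7 and 39.6 TPM at E12.5, 28.7 and 30.6 at E14, 19.6 and 18.7 at E15.5, 40.8 and 18.2 at E17 and 13.6 and 12.7 at P0. The stages E12.5, E14, E15.5 and P0 followed each other downward without overlap, and the E17 pair spread across 3 of them. Its P0 level was 35.4% of that at E12.5, or 2.83-fold lower, with P0 minus E12.5 at -1.43 (SE 0.26) on the log2 scale. Celsr2 was below Celsr1 at E12.5, and 7.26-fold above it at P0 (the mean of 2 libraries, SD 0.22).

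Celsr3, the paralog needed in neurons for the large axon tracts of the forebrain, was not lower at birth than at E12.5 beyond the spread of its libraries. Its values were 9.96 and 11.2 TPM at E12.5, 10.6 and 11.8 at E14, 14.01 and 13.8 at E15.5, 32.3 and 16.4 at E17 and 11.4 and 10.3 at P0. The E12.5 and P0 libraries overlapped, and P0 minus E12.5 was 0.04 (SE 0.23) on the log2 scale. Both E15.5 libraries lay above both of E14, and both E17 libraries above both of E15.5, the only 1 of the 6 genes with that order. How many of all genes had that order was not counted. The size of the step from E15.5 to E17 depended on E17 replicate 1, at 0.69 on the log2 scale with it and 0.22 without it. The E17 mean was 230% of that at E12.5, and P0 minus E17 was -1.02 on the log2 scale.

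**Figure D1:**
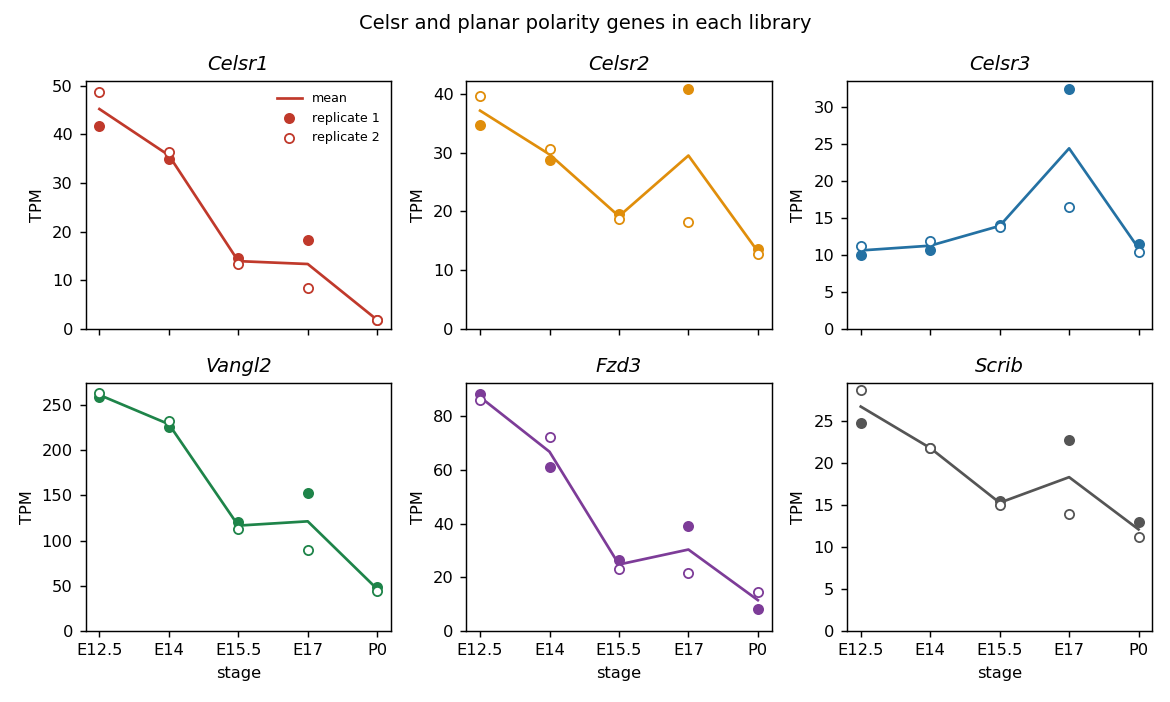
TPM (vertical axis, from 0) of each of the 6 genes at the 5 stages (horizontal axis), with 1 point per library and a line through the stage means. Celsr1 goes from 41.8 and 48.6 TPM at E12.5 to 1.84 and 1.78 at P0, Celsr3 starts and ends near 11 TPM, and the E17 libraries lie far apart in each panel.

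Vangl2, the transmembrane partner of Prickle whose loss leaves the neural tube open, was the highest of the 6 at every stage by stage mean. It had 259 and 264 TPM at E12.5, 226 and 232 at E14, 121 and 113 at E15.5, 153 and 89.7 at E17 and 48.6 and 43.9 at P0. The P0 level was 17.7% of the E12.5 level, 5.65-fold lower, and P0 minus E12.5 was -2.47 (SE 0.18) on the log2 scale. E17 lay on both sides of E15.5, with means of 121.3 and 116.6 TPM at E17 and E15.5.

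Fzd3, a Frizzled receptor that works with Celsr3 in axon guidance, stood at 88.3 and 86.0 TPM at E12.5, 61.1 and 72.4 at E14, 26.5 and 23.0 at E15.5, 39.0 and 21.6 at E17 and 8.27 and 14.6 at P0. Although both libraries of P0 lay below every earlier one, they differed from each other more than those of the other 5 genes. The P0 mean was 13.1% of that at E12.5, 7.63-fold lower. P0 minus E12.5 was -2.87 (SE 0.26) on the log2 scale, and between -3.25 and -2.50 when 1 library was left out, the ends of that range being set by P0 replicate 2 and P0 replicate 1. Fzd3 did not follow Celsr3: at E15.5 its mean was 28.4% of E12.5 while that of Celsr3 was 131%.

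Scrib had the smallest difference of the 5 genes that were lower at birth. It measured 24.8 and 28.6 TPM at E12.5, 21.8 and 21.7 at E14, a mean of 15.2 ± 0.37 (SD, n = 2) at E15.5, 22.7 and 13.9 at E17 and 13.0 and 11.1 at P0. The P0 level was 45.2% of that at E12.5, 2.21-fold lower, with P0 minus E12.5 at -1.08 (SE 0.18) on the log2 scale.

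By TPM, a per-length value, the order of stage means at E12.5 was Vangl2, Fzd3, Celsr1, Celsr2, Scrib and Celsr3, and the libraries of neighbours in that order did not overlap. At P0 the order was Vangl2, Celsr2, Scrib, Fzd3, Celsr3 and Celsr1. There the libraries of Celsr2 and Scrib, of Scrib and Fzd3, and of Fzd3 and Celsr3 overlapped, while Vangl2 stood above and Celsr1 below the other 4. At E15.5 Celsr1 and Celsr3 had the same level within their spread, at 13.9 TPM each. The order between genes rests on the lengths the authors divided by, which the sources used here do not give.

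From E12.5 to P0 the share of Celsr1 in the summed Celsr TPM fell, and those of Celsr2 and Celsr3 rose. Summed over the 3 genes, the stage mean was 92.9 TPM for E12.5, 76.6 for E14, 47.0 for E15.5, 67.2 for E17 and 25.8 for P0. Celsr1 made up 48.6% ± 0.39 (SD, n = 2) of the sum at E12.5, then 46.6% ± 0.65, 29.6% ± 0.86 and 19.7% ± 0.49 at the 3 stages that followed and 7.02% ± 0.25 at P0. The share of Celsr3 went the other way, from 11.4% ± 0.20 at E12.5 through 14.6% ± 0.47, 29.6% ± 0.66 and 36.8% ± 2.01 to 42.1% ± 0.50 at P0. Its own mean level was 10.6 TPM at E12.5 and 10.9 at P0, so between these stages its share rose as the sum fell. The share of Celsr2 moved least, from 39.97% ± 0.19 at E12.5 to 50.9% ± 0.26 at P0, the largest share there. In each library of E12.5 Celsr3 was 0.238 and 0.230 times Celsr1, at E15.5 0.963 and 1.04 times, and at P0 6.20 and 5.80 times. These shares are ratios within a library, so scaling of whole libraries does not move them. The E17 libraries differed more than 2-fold in summed Celsr TPM, at 91.5 and 42.9, but had Celsr1 shares of 20.1% and 19.4%, Celsr2 shares of 44.6% and 42.4% and Celsr3 shares of 35.4% and 38.2%.

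**Figure D2:**
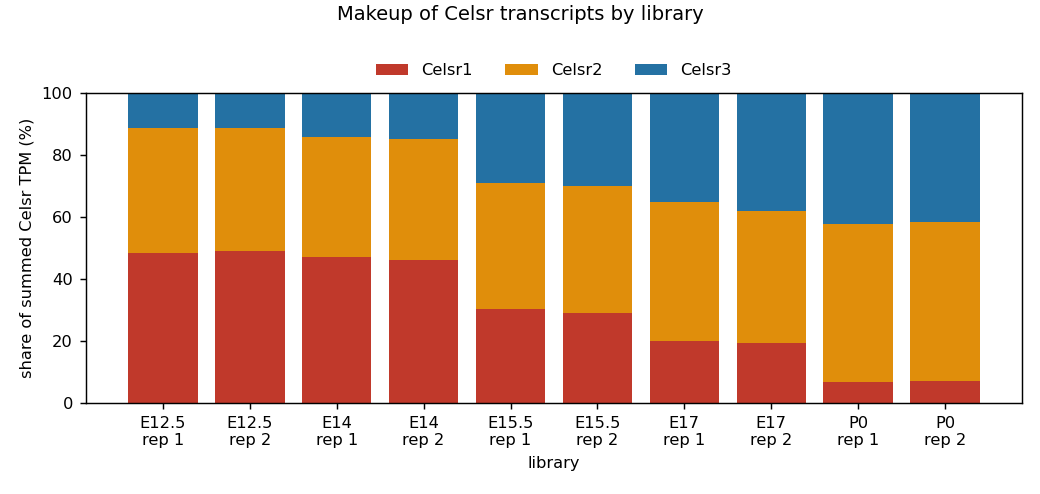
Share of the summed Celsr TPM (vertical axis, 0 to 100%) taken by Celsr1, Celsr2 and Celsr3 in each of the 10 libraries (horizontal axis). The 2 bars of a stage look alike at every stage, E17 included, as the Celsr1 part shrinks from 48.6% to 7.02% and the Celsr3 part grows from 11.4% to 42.1%.

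The E17 libraries set a limit on each statement about that stage. E17 replicate 1 was over 1.5 times replicate 2 in 6 of 6 of the genes, against 8.45% of all genes tested. The difference, replicate 1 minus replicate 2 on the log2(TPM + 1) scale, was 1.06 for Celsr1, 1.12 for Celsr2, 0.94 for Celsr3, 0.76 for Vangl2, 0.83 for Fzd3 and 0.67 for Scrib. Between 96.5% (Scrib) and 99.9% (Celsr2) of all genes had a lower value. Over all genes the SD of this difference between replicates was 0.285 at E17, 0.176 at P0 and between 0.088 and 0.108 at the other stages. It grew with the length of a gene's exons, from a median of -0.03 among the shortest 20% of genes to 0.33 among the longest 20%, and with GC content, from 0.01 to 0.30 between the lowest and the highest 20%. The 3 Celsr genes are among the longest 20% and the 20% with the highest GC content, as were 106 genes in all, with a median of 0.60 and a range from 0.21 (5th percentile) to 1.01 (95th percentile). Sums of cell markers, described below, also differed between E17 replicates 1 and 2. They were 1609 and 1276 TPM for dorsal forebrain, 246 and 216 for cycling cells, 9.01 and 5.95 for vascular and 8.45 and 2.06 for erythroid markers. The sums of radial glia (1535 and 2029), neuron (8175 and 8383) and microglial markers (5.89 and 6.87) went the other way. By the median log2 level of a list, however, replicate 1 was higher for radial glia (5.76 and 5.66) and neurons (8.58 and 8.51). The medians of the other lists named here kept the direction of their sums. The part of length, GC content or cell makeup in the difference of the 6 genes was not tested.

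**Figure D3:**
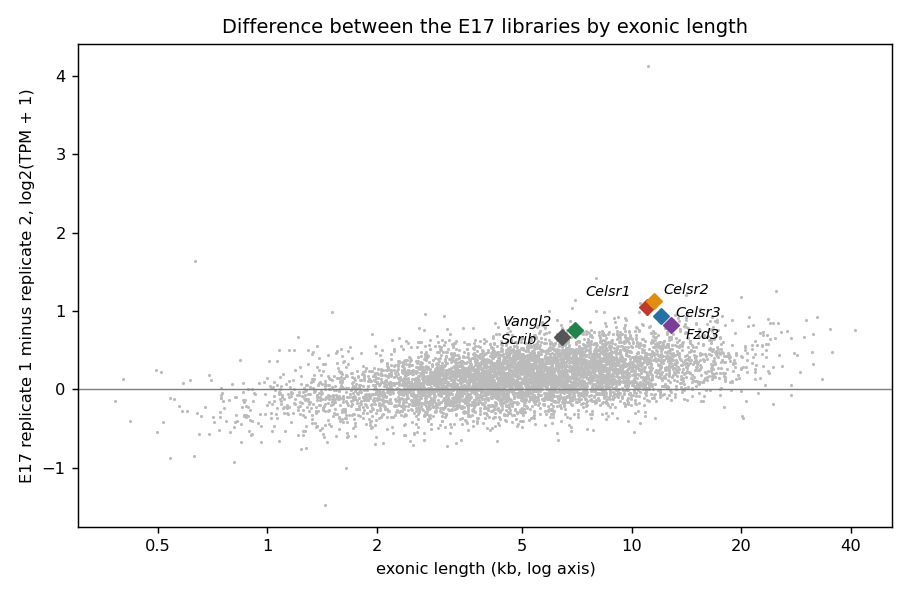
Difference between the E17 libraries (vertical axis, replicate 1 minus replicate 2, log2(TPM + 1)) against exonic length (horizontal axis, kb, log axis), with 1 grey point per gene and the 6 genes as diamonds. The cloud climbs from a median of -0.03 among the shortest 20% of genes to 0.33 among the longest 20%, and the 6 diamonds, at 0.67 to 1.12, lie along its upper edge.

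Both E17 libraries exceeded both P0 libraries for 6 of 6 genes, an order seen in 39.9% of all genes. P0 minus E17 was -2.26 for Celsr1, -1.0 for Celsr2, -1.02 for Celsr3, -1.32 for Vangl2, -1.32 for Fzd3 and -0.53 for Scrib on the log2 scale. Without E17 replicate 1 the values were -1.73, -0.44, -0.55, -0.94, -0.91 and -0.19, and without E17 replicate 2 they were -2.78, -1.56, -1.49, -1.70, -1.73 and -0.86, in the same order of genes. The size also depended on the scale: with a pseudocount of 10 TPM it was -0.95 for Celsr1, -0.68 for Celsr3 and -0.34 for Scrib, and with quantile normalization -0.29 for Scrib. The step from E15.5 to E17 had no direction that held for Celsr1, Celsr2, Vangl2, Fzd3 or Scrib. It was -0.15, 0.49, 0.01, 0.23 and 0.21 with both E17 libraries and -0.68, -0.07, -0.37, -0.19 and -0.13 without E17 replicate 1. For Celsr3 it was 0.69 with both and 0.22 without replicate 1.

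Setting E17 aside, all 6 genes had both P0 libraries below both E15.5 libraries, an order found in 48.8% of all genes. P0 minus E15.5 was -2.41 (SE 0.25) for Celsr1, -1.32 (SE 0.18) for Vangl2 and -1.09 (SE 0.26) for Fzd3, which in TPM is 7.69-fold, 2.52-fold and 2.16-fold lower. It was smaller for Celsr2, at -0.51 (SE 0.26), Celsr3, at -0.33 (SE 0.23), and Scrib, at -0.32 (SE 0.18). Each of these 3 was larger in size than its SE, which includes the wide E17 pair. In TPM these 3 were 1.46-fold, 1.28-fold and 1.26-fold lower, and the median of all genes was -0.09 on the log2 scale. This comparison was added after the markers below had been seen. Over the whole span both P0 libraries were below both E12.5 libraries in 5 of the 6, against 58.4% of all genes, and from E14 to E15.5 both later libraries were below both earlier ones in 5 of the 6, against 56.1%. Orders of this kind were therefore common in these data, and the counts do not set the 6 genes apart.

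Markers of other cells moved over the same stages. Choroid plexus and dorsal midline markers (2 of 9 in the table) summed to between 303 and 452 TPM at E12.5, 1405 and 1517 at E14 and 3.46 and 4.25 at E15.5. Vascular and meningeal markers (5 of 10) went from 139 TPM at E12.5 to between 3.68 and 3.87 at E15.5, and erythroid markers (2 of 7) from between 4318 and 4490 to between 8.38 and 9.12. At P0 these 3 lists summed to at most 4.57, 3.64 and 2.31 TPM, with Hbb-bh1, an embryonic globin, listed at 0. The differences of the 6 genes between E14 and E15.5, and over the whole span, were measured beside this change, whose part in them was not tested. At E15.5 and P0 the 3 lists summed to no more than 9.12 TPM, and at E17 between them the vascular list had 9.01 and 5.95. From E15.5 to P0, an interval added after these markers had been seen, the 6 genes were between 1.26-fold (Scrib) and 7.69-fold (Celsr1) lower in TPM. The part of these cells in that was not tested either. Of 6 ependymal markers 0 were in the table. The single microglial marker of 8 stood between 7.96 and 8.23 TPM at E12.5 and between 7.07 and 7.81 at P0. Of the dorsal forebrain markers, which define the labelled tissue, 6 of 10 were in the table, with sums between 1002 and 1609 TPM and 0 of them at 0 in any library. Between 5990 and 6036 of the 6147 listed genes had 1 TPM or more in each library. A listed marker is thus rarely at 0, and that count says little about the tissue.

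Within the neural lineage, markers of cycling cells (9 of 10) summed to between 1236 and 1279 TPM at E12.5 and between 121 and 124 at P0. Intermediate progenitor markers (2 of 5) summed to between 261 and 269 TPM at E12.5 and between 36.4 and 38.5 at P0. Markers of neurons past division (9 of 10) went from between 2564 and 2588 TPM to between 10029 and 10925. Radial glia markers (8 of 10), which label the progenitors along the ventricle, had a median difference of -2.86 from E12.5 to P0 on the log2 scale, and cycling markers had -4.0, while the neuron markers had 2.91. The radial glia markers did not move as 1 group: 6 were called lower, and Fabp7 (0.94) and Slc1a3 (0.22) were called higher. Fabp7 had the largest part of their sum at P0, with a mean of 1406 TPM. The summed TPM of the radial glia markers differed less than their median, at between 1994 and 2023 at E12.5 and between 1649 and 1679 at P0. In bulk tissue, fewer cells of a type and less RNA per cell cannot be told apart. The values that follow use the median log2 level of a list within a library, not the median difference above. For radial glia this level was 7.04 and 7.14 at E12.5, and 4.99 and 5.14 at P0. For neurons it was 7.37 and 7.37, then 8.92 and 8.96. Against the median of the radial glia markers in the same library, the difference of Celsr1 from E12.5 to P0 was -2.01 and that of Fzd3 -0.85 and of Vangl2 -0.45, while that of Celsr2 was 0.60, of Scrib 0.94 and of Celsr3 2.06. Beside the median difference of -2.86, however, Vangl2 (-2.47) had the smaller fall and Fzd3 (-2.87) nearly the same. The sign for Vangl2 and the size for Fzd3 thus depend on the measure. Against the median of the neuron markers all 6 were lower at P0, from -5.61 for Celsr1 to -1.53 for Celsr3. Against that of the cycling markers the difference of Celsr1 was -0.35 and the other 5 between 0.82 (Fzd3) and 3.73 (Celsr3).

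**Figure D4:**
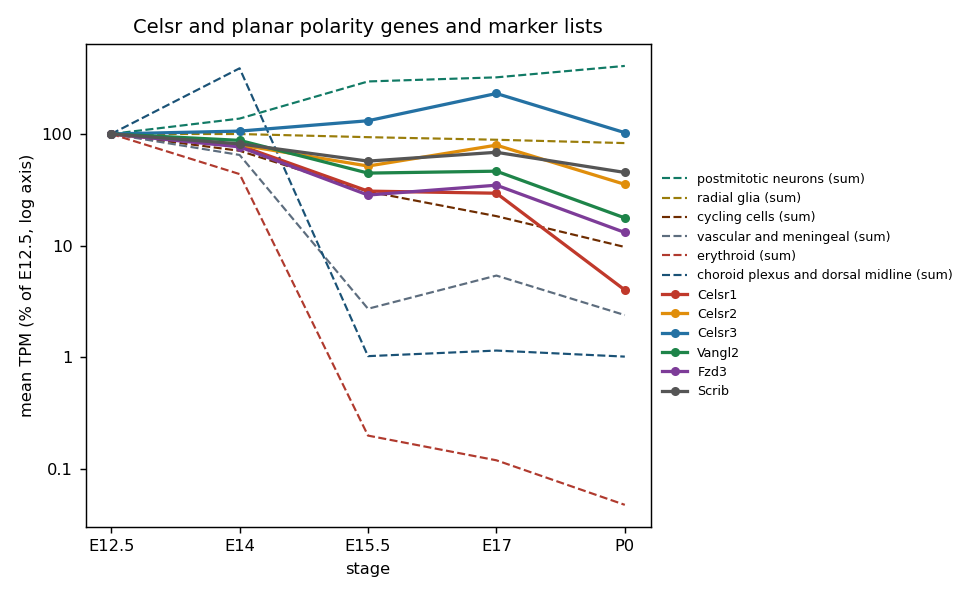
Mean TPM as a percentage of the E12.5 mean (vertical axis, log axis) at the 5 stages (horizontal axis) for the 6 genes (solid lines) and for summed marker lists (dashed lines). Choroid plexus, vascular and erythroid sums drop by E15.5 and stay low, while Celsr1 goes from 30.8% at E15.5 to 4.0% at P0 and Celsr3 returns to 103%.

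The rest of the pathway was read from lists of 97 symbols other than the 6 genes, of which 37 were in the table and 37 of 37 could be tested. Across the 5 stages 34 of the 37 changed (limma's moderated F test, Benjamini-Hochberg adjusted p under 0.05), against 82.9% of all 6048 genes tested; the exceptions were Arfrp1, Dlg3 and Dlg5. From E12.5 to P0, 12 rose, 22 fell and 3 were not called, against 27.1% of all genes called higher and 51.0% called lower. The median difference of the 37 was -0.66, beside -0.27 for all genes. Scaling by the median of ratios, which moves the all-gene median to -0.01, gave 14 higher and 21 lower of the 37, and quantile normalization gave the same split. Over all genes the split was 1641 higher and 3087 lower as deposited, 2293 and 2282 with the median of ratios and 2214 and 2419 with quantile normalization. From E14 to E15.5, 8 rose and 18 fell (18.4% and 33.3% of all genes), with a median of -0.25. From E17 to P0, 4 rose and 15 fell (12.9% and 28.8%), and 7 rose and 14 fell without E17 replicate 1. From E15.5 to P0, 9 rose and 14 fell (19.5% and 30.7%). With median-of-ratios scaling the E15.5 to P0 split was 12 and 13. The other steps between neighbouring stages, added after these counts had been seen, differed. From E12.5 to E14, 5 rose and 4 fell (3.95% and 4.78% of all genes), and only 1 gene was called when any library of those stages was left out. From E15.5 to E17, 8 rose and 1 fell (14.4% and 10.6%), but 5 rose and 9 fell without E17 replicate 1, and 17 rose and 1 fell without E17 replicate 2. These comparisons share stages and are not independent of each other.

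Among the other core genes (8 of 15 in the table, the 5 of the 6 genes that belong to it included), Dvl2, a Dishevelled protein that carries the signal from Frizzled, fell from 25.05 and 27.6 TPM at E12.5 to 8.03 and 7.85 at P0, a log2 difference of -1.61 (SE 0.15, limma adjusted p = 1.17e-06). Its paralog Dvl3 fell by 0.63 (SE 0.19, limma adjusted p = 0.0105), a call lost under median-of-ratios scaling (adjusted p = 0.0574) and without E12.5 replicate 2 (0.0525) or P0 replicate 1 (0.0794). Prickle1, the cytoplasmic partner of Vangl, rose by 1.36 (SE 0.13, limma adjusted p = 1.53e-06), from 3.44 and 3.09 TPM to 9.22 and 10.6. Prickle1 and Vangl2, which act on the same side of the cell, thus had differences of opposite sign from E12.5 to P0.

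Among Wnt ligands, co-receptors and modulators (4 of 15 in the table), 4 of 4 fell from E12.5 to P0, and also in each of the steps E14 to E15.5, E17 to P0 and E15.5 to P0. Fzd1, a Frizzled receptor, fell by 3.26 (SE 0.16) on the log2 scale, from 69.2 and 69.1 TPM at E12.5 to 6.76 and 5.89 at P0. Gpc4, a glypican that binds Wnt proteins, fell by 3.23 (SE 0.13). Sfrp1, a secreted Wnt antagonist, fell by 2.54 (SE 0.14), from 747 and 731 TPM to 127 and 126. Ptk7, a pseudokinase receptor of the planar polarity branch, fell by 2.22 (SE 0.16). These 4 calls held in each of the 19 alternative settings and left-out libraries.

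The Fat and Dachsous branch (4 of 7 in the table), large cadherins that form another planar polarity system, also fell in 4 of 4 genes from E12.5 to P0. Fat1 fell by 1.42 (SE 0.16), Fat3 by 1.12 (SE 0.21), Dchs1 by 0.98 (SE 0.23) and Fat4 by 0.86 (SE 0.22) on the log2 scale. The timing differed among them by value: Fat1 went from 10.7 and 11.5 TPM at E14 to 3.85 and 3.76 at E15.5 and rose again from E15.5 to P0 by 0.65 (limma adjusted p = 0.0066), at 6.12 and 6.95 TPM. Dchs1 had 24.7 and 29.5 TPM at E12.5, 20.05 and 19.5 at E15.5, 45.7 and 23.0 at E17 and 13.9 and 12.6 at P0, a spread at E17 like that of the Celsr genes. E17 replicate 1 was over 1.5 times replicate 2 in 4 of 4 genes of this branch and in 11 of the 37 genes in all.

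Genes for trafficking and turnover of core proteins (5 of 8 in the table) were split. Kif26b, a kinesin-like protein, rose by 0.69 (SE 0.17) from E12.5 to P0, and Gipc1, an adaptor that helps internalise Vangl2, fell by 0.67 (SE 0.09). Sec24b, the coat protein that exports Vangl2 from the endoplasmic reticulum, fell by 0.56 (SE 0.13, limma adjusted p = 0.0019; 0.0607 under quantile normalization). Smurf1, a ubiquitin ligase for Prickle, rose by 0.34 with a limma adjusted p of 0.0432 that was lost in 10 of the 19 alternatives. Arfrp1 was not called as deposited, at 0.11 (SE 0.08), but was with median-of-ratios scaling (0.38, limma adjusted p = 0.000555) and quantile normalization (0.21, adjusted p = 0.0215).

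Effectors (9 of 14 in the table) had 6 genes that rose and 3 that fell. The kinase genes Mapk8 and Mapk9, which encode JNK proteins, rose by 1.13 (SE 0.08) and 0.96 (SE 0.10), and Daam1, a formin downstream of Dishevelled, rose by 0.80 (SE 0.12). Dact1, Cdc42 and Rac1 rose by 0.63, 0.45 and 0.27. Rock1 fell by 1.0 (SE 0.11), Rhoa, the GTPase that activates it, by 0.66 (SE 0.07) and Rock2 by 0.63 (SE 0.12).

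In the Scribble complex and the other apicobasal genes (13 of 21 in the table, 12 without Scrib), 3 rose and 7 fell from E12.5 to P0. Of the partners of Scrib, Llgl1 fell by 1.81 (SE 0.16), from 99.8 and 112 TPM to 31.6 and 27.4, and Dlg1 by 1.31 (SE 0.10), from 37.5 and 37.05 TPM to 13.8 and 15.0. Dlg5 was not called, at -0.28 (SE 0.16), but the same difference was called by limma with only the 2 stages in the fit (adjusted p = 0.0156) and without E17 replicate 1 (0.00693) or E17 replicate 2 (0.00681). Crb2, an organiser of the apical membrane, fell by 3.04 (SE 0.17), from 20.5 and 22.1 TPM to 1.77 and 1.63. Pard3, Mpp5, Pard6b and Prkci fell by 2.08, 1.75, 1.48 and 0.71. The 3 that rose were Dlg2 by 3.91 (SE 0.11), from 8.81 and 8.56 TPM to 128 and 163, Prkcz by 2.55 (SE 0.09) and Dlg4 by 1.75 (SE 0.09). Dlg2 and Dlg4 encode scaffolds of the postsynaptic density and are best known from synapses. Dlg3 was not called as deposited, at 0.00 (SE 0.11), but was with median-of-ratios scaling (0.26, limma adjusted p = 0.0177) and quantile normalization (0.28, adjusted p = 0.00916). Of 23 symbols for other adhesion receptors coupled to G proteins, 0 were in the table.

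**Figure D5:**
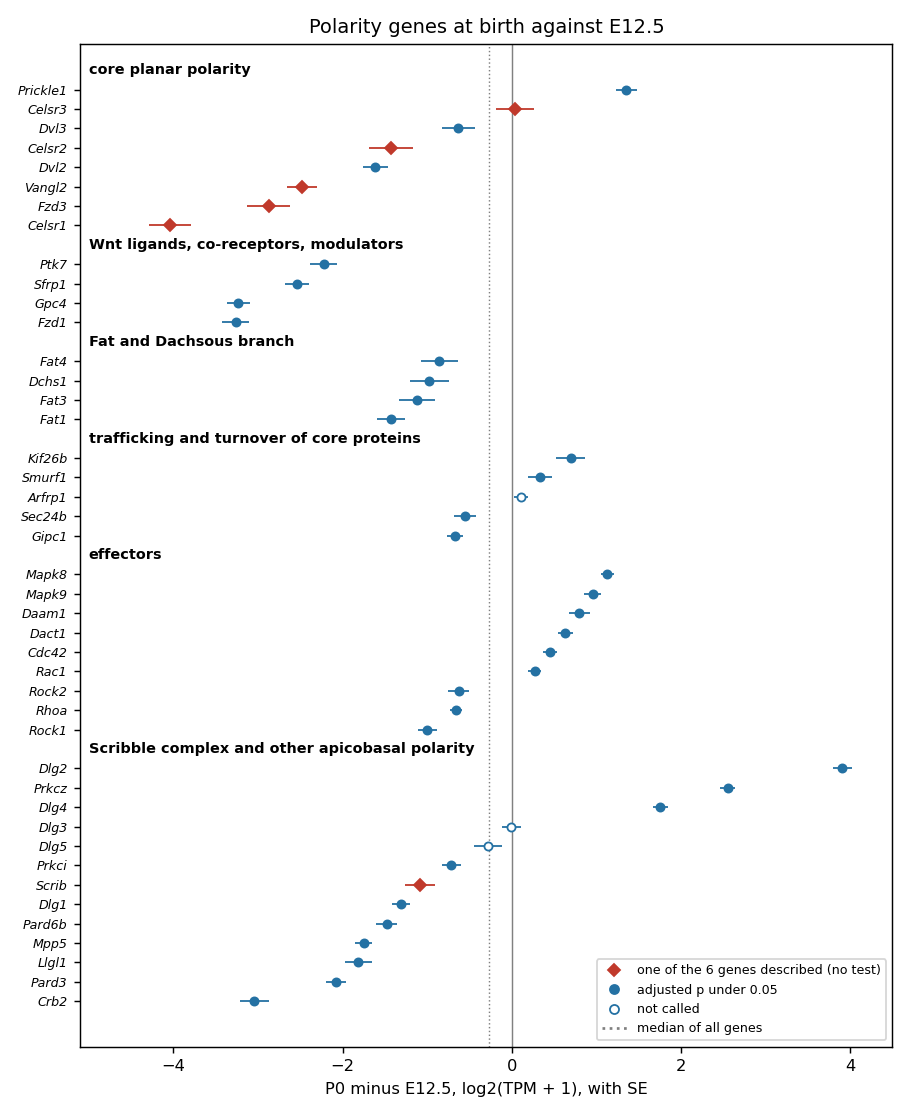
Difference from E12.5 to P0 (horizontal axis, log2(TPM + 1), bars are SE) of the polarity genes by group (vertical axis), with the 6 genes described as diamonds and the 37 others as circles, filled where the limma adjusted p is under 0.05. All Wnt and Fat branch genes lie left of the all-gene median of -0.27, and Dlg2, at 3.91, lies farthest right.

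The genes nearest in pattern were found by the root mean square (RMS) difference of centred log2(TPM + 1) values over the 10 libraries, among 5435 genes averaging 10 TPM or more. Because the libraries include the E17 pair, a shared difference between those 2 counts toward likeness. The nearest to Celsr1 were Cdon (RMS 0.20), Igf2bp1 (0.24) and Tuba1c (0.28), against a median of 1.37 over all genes compared. To Celsr2 they were Ptprs (0.10), Plxnb1 (0.12) and Glg1 (0.14), with a median of 0.53. To Celsr3 they were Ntrk3 (0.08), Plxna3 (0.08) and Sema4c (0.12), with a median of 0.54. None of these 3 had a called change from E12.5 to P0, which their choice by likeness to Celsr3 made likely beforehand. Vangl2 was nearest to Inppl1 (0.12), Golm1 (0.12) and Mmp14 (0.13), with a median of 0.83. Fzd3 was nearest to Dcc (0.12), a netrin receptor, Lnpep (0.13) and Notch1 (0.21), with a median of 0.98. Scrib was nearest to Tbl2 (0.06), Ncstn (0.07) and Sec61a1 (0.08), with a median of 0.39. No gene was among the 3 nearest of more than 1 of the 6.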

How the data were processed

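Polyadenylated RNA was sequenced from stranded TruSeq libraries of cleared tissue lysates, per the labels' protocols. The submitters' processing notes name STAR, Subread and GRCm38.p5, without versions. The deposited values are TPM, which the authors computed and which sum to between 68.9% and 71.7% of their fixed total over the listed genes. The sources used here do not give read depth, the gene lengths used or the rule for listing genes, and each TPM depends on the levels of all other genes. Columns were matched to libraries by name, and 0 columns were left without a sample.

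The 6048 genes averaging 1 TPM or more (99 were below) were analysed as log2(TPM + 1) in limma 3.58.1 (R 4.3.3), with 1 mean per stage, a variance trend, 5 residual degrees of freedom and Benjamini-Hochberg adjustment over all genes tested. The median SE of P0 minus E12.5 was 0.11. The code was tested on simulated data. P-values and SEs rest on the spread between the 2 libraries of a stage, pooled over all 5 stages and moderated across genes. The SE of a gene is therefore the same in each comparison of 2 stages, 0.25 for Celsr1. For the 6 genes it includes the wide E17 pair, also where E17 is not compared. No litter or batch is named in the labels. Shares, overlaps and figures were computed with Python 3.11.15, pandas 2.3.3, numpy 2.4.6, Biopython 1.88 and matplotlib 3.10.9. Exonic length and GC content came from GENCODE M21, which may differ from the authors' annotation.

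The 6 genes, the lists and the tests were chosen with earlier results of these data known. Named genes were the 6, the called genes with the largest rise and fall in each list, every listed gene present of the core, Fat and Scribble groups, and the 3 nearest genes of each of the 6; the other genes of the lists were named after their values were seen. Alternatives were other pseudocounts, filters and scalings, no variance trend, a replicate block, only 2 stages in the fit and each library left out.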

Additional observations from a re-analysis of the deposited data

How the results depend on the processing

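Under the alternatives tried, the P0 minus E12.5 differences of Celsr1, Celsr2, Vangl2, Fzd3 and Scrib kept their sign, while their size moved with the scale. Celsr1 was -4.57 with a pseudocount of 0.1 TPM, -2.22 with 10 TPM and -3.52 after quantile normalization. With 10 TPM, Celsr2 was -1.02, Fzd3 -2.20 and Scrib -0.73. Median-of-ratios scaling gave -2.20 for Vangl2 and -0.82 for Scrib, and quantile normalization -0.72 for Scrib and 0.49 for Celsr3. Leaving out 1 library gave -3.25 to -2.50 for Fzd3 and -0.04 to 0.11 for Celsr3, which turned to -0.04 without E12.5 replicate 1 and to -0.03 without P0 replicate 1. E17 minus E15.5 was -0.68 without E17 replicate 1 and 0.38 without replicate 2 for Celsr1, -0.069 and 1.05 for Celsr2, -0.19 and 0.64 for Fzd3, -0.13 and 0.55 for Scrib and -0.37 and 0.39 for Vangl2, which was also -0.0041 with median-of-ratios scaling and -0.041 without E15.5 replicate 2. Among genes not called as deposited, median-of-ratios and quantile scaling turned Dlg3 to 0.26 and 0.28 (called there), Ntrk3 to 0.13 and 0.087, Plxna3 to 0.17 and 0.25 and Sema4c to 0.19 and 0.18, and quantile scaling turned Dlg5 to 0.025. With 1 library left out, Dlg3 ran from -0.12 to 0.11 (0.025 without E12.5 replicate 2), Plxna3 from -0.22 to 0.029 and Sema4c from -0.24 to 0.087 (0.0082 without E12.5 replicate 2). Of 55 named genes other than the 6, 9 lost or gained a call or turned under any of 19 alternatives. Genes called from E17 to P0 numbered 2525 in the main analysis, 1126 with only these 2 stages in the fit, and between 1641 (without P0 replicate 1) and 3767 (without E17 replicate 2) with 1 library left out. Polarity list genes called there numbered 19 and, with only 2 stages, 10 (0 higher, 10 lower). With only the 2 stages in the fit, counts rose from 3128 to 4575 for E14 to E15.5, 4728 to 4986 for E12.5 to P0, 3036 to 3668 for E15.5 to P0 and 528 to 2479 for E12.5 to E14 (polarity list 9 to 20), and dropped from 1514 to 120 for E15.5 to E17 (list 9 to 1). With quantile normalization E12.5 to E14 had 901 and the list had 15 from E15.5 to E17. With 1 library left out, E12.5 to E14 ran from 65 (without E12.5 replicate 1) to 1769 (without E17 replicate 1), the list there from 1 to 12, E15.5 to E17 from 466 (without E15.5 replicate 1) to 3164 (without E17 replicate 2) and the list there from 3 to 18. Median-of-ratios scaling split all genes called into 432 higher and 304 lower from E12.5 to E14 (239 and 289 as deposited) and into 1573 and 1558 from E14 to E15.5, 1287 and 1370 from E17 to P0, and 1675 and 1540 from E15.5 to P0, against 1113 and 2015, 781 and 1744, and 1179 and 1857 as deposited; quantile normalization gave 915 and 971 from E15.5 to E17, against 871 and 643. The cause of these shifts was not tested. Replicate numbers did not pair the libraries: their deviations correlated between -0.37 and 0.11 over 10 pairs of stages. With a replicate block 4930 genes changed over the stages (5014 without), 4676 from E12.5 to P0 (4728), 3004 from E14 to E15.5 (3128) and 2371 from E17 to P0 (2525), and the polarity list had 34 calls from E12.5 to P0 (34). The sources used here give no read depth, so counting error of low values such as Celsr1 at P0 could not be set.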
